A study of Danio rerio with 8 samples.

Results

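The 9 transcription factor genes hnf4a, cebpa, cebpb, foxa3, prox1a, onecutl, onecut1, hnf1ba and sox9b, which are known for the identity of hepatocytes and bile duct cells, were examined in livers of lf:YAP zebrafish larvae and of wild-type (WT) larvae. The genes were chosen by symbol, and each symbol was on 1 row, so that they make up 9 of the 28599 named rows of the table. Livers were dissected from untreated larvae at 7 days of age, and total RNA was sequenced from 4 lf:YAP pools and 4 WT pools of 10 livers each. Per the labels, lf:YAP is a transgenic line in which hepatocytes alone carry hyperactive YAP. The promoter, the allele and the YAP sequence of the transgene are not given in the labels, nor is the genetic background of WT or whether pools came from separate clutches. The p-values therefore measure the spread between these pools, which may be partly technical.

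Hepatocytes and the cells that line bile ducts arise from a shared precursor, the hepatoblast. In mammals, HNF4A, the FOXA factors, C/EBP-alpha, PROX1 and HNF6 (the product of ONECUT1) form a network that sustains hepatocyte genes, while SOX9 and HNF6 are known for their part in forming bile ducts. YAP is the transcriptional effector of the Hippo pathway and binds DNA through TEAD partners. In mouse liver, high YAP activity is known to turn hepatocytes towards a ductal or progenitor state, and this comparison shows the levels of the lineage factors when YAP is active in hepatocytes of a zebrafish larva.

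Counts on named genes came to 2668432 to 3170508 per lf:YAP library and 2853543 to 3797709 per WT library. They include rows of ribosomal and mitochondrial RNA. Over all libraries the row zgc:158463 held 27.9% of these counts, NC_002333.4 20.3%, NC_002333.17 6.27% and BX649540.1 1.87%. Far fewer counts were thus left for other genes, and the shares of counts below include these rows in their base. Levels are given in CPM, library-scaled counts with TMM factors applied, and a gene was called changed at an adjusted p under 0.05 by edgeR's quasi-likelihood test across 8369 tested genes. The yap1 row was at 631, 1012, 299.6 and 1304 CPM in lf:YAP replicates 1 to 4, against 23.7, 23.6, 16.7 and 20.9 CPM in WT replicates 1 to 4. All lf:YAP libraries thus carried more yap1 than any WT library, and replicate 3 carried the least among them. A list of 21 hepatocyte markers held 3.61% to 3.98% of the counts in lf:YAP and 3.67% to 4.43% in WT. These and all later marker shares are percentages of raw counts, without TMM factors. With TMM factors, the summed level of the hepatocyte markers was 28157 to 43792 CPM in lf:YAP and 38296 to 49514 CPM in WT. None of these markers was at 0 in all libraries, although hpxa was too rare to be tested. RNA of exocrine pancreas was present too. Its 30 markers held 1.57% of the counts in lf:YAP replicate 3 but 0.435% to 0.515% in lf:YAP replicates 1, 2 and 4, and 1.33% in WT replicate 4 but 0.292% to 0.8% in WT replicates 1 to 3. Because foxa3, hnf1ba, prox1a and the onecut genes are also known in pancreas or intestine, results without these libraries are given for some genes and lists. They are not given for every call that changed.

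The lineage factors did not move as a block. Of the 9 genes, 8 were abundant enough to be tested. Among those, cebpb and sox9b rose in lf:YAP, onecutl, cebpa and prox1a fell, and hnf4a, hnf1ba and foxa3 did not pass. Over all tested genes 11.1% were called higher and 10.5% lower. The lf:YAP and WT libraries did not overlap for onecutl, cebpa, prox1a and sox9b, 4 of the 8 tested factors, against 23.7% of all tested genes. Of these, cebpa passed the low-count filter through WT, with only 2 lf:YAP libraries over its level of 3.44 CPM. The groups overlapped for onecut1, which was not tested. The 9 genes, and the gene lists below, were chosen with earlier results of these data known. Shares set against all tested genes are therefore description only. The median log2 fold change was -0.36 over the 8 tested factors and 0.01 over all tested genes.

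**Figure D1:**
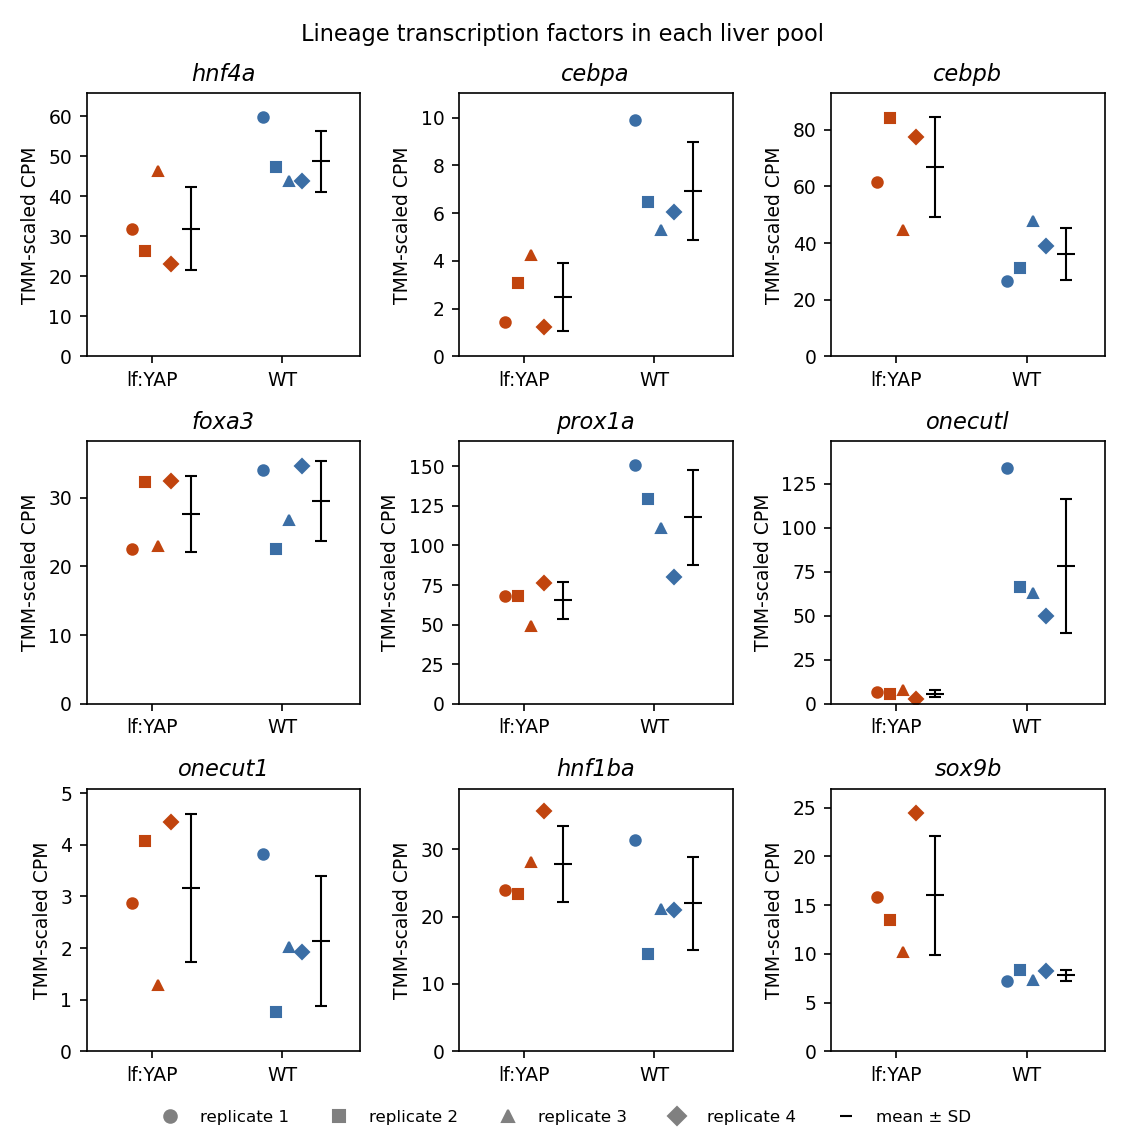
Level of each of the 9 lineage factors, in TMM-scaled CPM from 0 on a linear axis, in 4 lf:YAP pools (left) and 4 WT pools (right); symbols mark replicate numbers, and the bar gives the mean ± SD. All lf:YAP pools lie below all WT pools for onecutl, cebpa and prox1a and above them for sox9b, while hnf4a and cebpb overlap through lf:YAP replicate 3.

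The largest change was that of onecutl, a OneCut homeodomain factor of the HNF6 family. Its level was 6.82, 5.59, 7.66 and 2.97 CPM in lf:YAP replicates 1 to 4, against 134, 66.7, 63 and 49.7 CPM in WT replicates 1 to 4. The highest lf:YAP pool was thus far below the lowest WT pool, and WT replicate 1 stood above the other WT pools. The means were 5.76 ± 2.05 CPM in lf:YAP and 78.3 ± 37.8 CPM in WT (SD, n = 4 each), a 13.9-fold lower level with a log2 fold change of -3.80 ± 0.38 (SE; edgeR adjusted p = 0.000137). In raw counts, onecutl had 71 in lf:YAP and 862 in WT, summed over the 4 libraries of each group. Leaving out any 1 library gave log2 fold changes between -3.98 and -3.43. In bulk RNA, fewer cells that express a gene and less of its RNA per cell cannot be told apart, here and for each result below.

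The paralog onecut1 was not called changed under any filter tried. It had 8, 16, 3 and 18 counts in lf:YAP replicates 1 to 4 and 10, 2, 5 and 7 counts in WT replicates 1 to 4, too few for the filter on low counts, and the groups overlapped. When the filter was lowered to 1 CPM in 4 libraries, its log2 fold change was 0.65 with a 95% interval from -0.53 to 1.84 (edgeR adjusted p = 0.394). Another family member, onecut2, was at 12.9, 7.12, 14.9 and 11.4 CPM in lf:YAP and at 31.7, 23.6, 25.2 and 17 CPM in WT, without overlap. Its log2 fold change was -1.09 ± 0.25 (SE; edgeR adjusted p = 0.00833). RefSeq lists onecut1 among the older names of onecutl, so that reports that use the name onecut1 in zebrafish may mean either gene; here the symbols are those of the deposited table. How reads that match more than 1 OneCut gene were counted is not stated, which makes the separate levels of these paralogs uncertain.

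Among the C/EBP factors, which are basic leucine zipper proteins, cebpa fell and cebpb rose. The gene cebpa encodes the factor that is known to hold hepatocytes in a differentiated, non-dividing state in mammals. Its counts were 4, 12, 10 and 5 in lf:YAP replicates 1 to 4 and 26, 17, 13 and 22 in WT replicates 1 to 4, without overlap. The level was 2.49 ± 1.43 CPM in lf:YAP and 6.93 ± 2.05 CPM in WT (SD, n = 4 each), a log2 change of -1.51 ± 0.39 (SE; edgeR adjusted p = 0.0144). As all WT libraries but only 2 lf:YAP libraries were over the filter's level of 3.44 CPM, cebpa was tested through its level in WT. With 31 counts in all lf:YAP libraries together, its change is less precisely known than that of the more abundant factors.

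The gene cebpb encodes the C/EBP factor linked in mammals to the acute phase response and to liver regeneration. It was at 61.4, 84.1, 44.7 and 77.3 CPM in lf:YAP replicates 1 to 4, and at 26.7, 31.3, 47.6 and 39 CPM in WT replicates 1 to 4. Only lf:YAP replicate 3 fell within the WT range. The means were 66.9 ± 17.6 CPM in lf:YAP and 36.1 ± 9.16 CPM in WT (SD, n = 4 each); the log2 fold change was 0.89 ± 0.23 (SE; edgeR adjusted p = 0.0139). The call was lost without lf:YAP replicate 2 (edgeR adjusted p = 0.0509) and without WT replicate 2 (0.0522). As cebpb is also known in macrophages, the leukocyte markers bear on it: 23 such genes together made up 0.00248% to 0.00647% of the counts in lf:YAP and 0.0012% to 0.00195% in WT, with cd8a at 0 in all libraries. Their summed level was 26.7 to 50.7 CPM in lf:YAP and 13.4 to 20.3 CPM in WT, no one of them was abundant enough to be tested, and the shares did not overlap (2-sided exact permutation p = 0.0286, adjusted p = 0.157). When the filter was lowered to 1 CPM in 4 libraries, 2 of these markers were called higher in lf:YAP. Without lf:YAP replicate 3, or without it and WT replicate 4, 1 was called higher. The part of the leukocyte markers in the cebpb result was not tested. The family members cebpd, at 262 ± 94.2 CPM in lf:YAP and 268 ± 15 CPM in WT, and cebpg, at 25.2 ± 0.831 and 29.2 ± 3.75 CPM in the same order (SD, n = 4 each), did not pass. Their log2 fold changes had 95% intervals from -0.59 to 0.53 and from -0.58 to 0.16.

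The gene hnf4a encodes the nuclear receptor that is required for most hepatocyte functions in mammals. It was at 31.9, 26.4, 46.4 and 23 CPM in lf:YAP replicates 1 to 4, and at 59.9, 47.3, 43.9 and 43.7 CPM in WT replicates 1 to 4. The 3 lf:YAP libraries other than replicate 3 lay below all WT libraries, and replicate 3 lay among them. The log2 fold change was -0.62 ± 0.22 (SE), with a 95% interval from -1.15 to -0.10, and did not pass (edgeR adjusted p = 0.0552). Without lf:YAP replicate 3 it was -0.85 and passed (edgeR adjusted p = 0.00309), as it also did with DESeq2's size factors in edgeR (0.0466) and with limma-voom (0.0404). Scaling by total counts alone gave -0.37 (edgeR adjusted p = 0.21). The gene did not pass in 7 of the 8 fits that left out 1 library, nor in 4 of 9 other settings, DESeq2's own test among them. The other HNF4 genes, hnf4b and hnf4g, had log2 fold changes of 0.69 and -0.08 and did not pass.

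The gene foxa3 encodes a forkhead factor that opens chromatin at liver genes in mammals. It was at 22.6, 32.3, 23 and 32.4 CPM in lf:YAP replicates 1 to 4, and at 34, 22.5, 26.8 and 34.6 CPM in WT replicates 1 to 4, with full overlap of the groups. The log2 fold change was -0.09, with a 95% interval from -0.57 to 0.39 (edgeR adjusted p = 0.784), so a change of 2-fold in either direction lies outside the interval; with total counts alone its sign flipped, to 0.24. Among its relatives, foxa1 fell to 2.87, 4.07, 3.4 and 5.68 CPM in lf:YAP, against 14.5, 12.6, 14.2 and 6.86 CPM in WT, a log2 fold change of -1.52 ± 0.31 (SE; edgeR adjusted p = 0.00384). Like cebpa, foxa1 was tested through its level in WT, as lf:YAP replicates 1 and 3 were under the filter's level. The remaining tested relative, foxa2, had 0.68 ± 0.35 (SE) and did not pass with all libraries at the main settings. It passed without WT replicate 1 (1.04, edgeR adjusted p = 0.0495). With all libraries and no filter but 1 count in total, foxa2 passed too (0.75, edgeR adjusted p = 0.0289).

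Prox1 is a homeodomain factor that is needed for the outgrowth of the embryonic liver in mice and that marks hepatocytes and lymphatic endothelium. The zebrafish gene prox1a was at 67.8, 68.1, 48.9 and 76.6 CPM in lf:YAP replicates 1 to 4, and at 151, 129, 111 and 79.9 CPM in WT replicates 1 to 4. The groups did not overlap, but the highest lf:YAP library and the lowest WT library stood close together. The means were 65.4 ± 11.7 CPM in lf:YAP and 117 ± 29.9 CPM in WT (SD, n = 4 each), with a log2 difference of -0.84 ± 0.21 (SE; edgeR adjusted p = 0.0127). Leaving out any 1 library kept the call, with values between -1.002 and -0.709. It was lost with total counts alone, at -0.50 (edgeR adjusted p = 0.149). The 24 endothelial markers took 0.0154% to 0.0328% of the counts in lf:YAP and 0.0164% to 0.0236% in WT (2-sided exact permutation p = 0.257, adjusted p = 0.314 over 11 marker lists).

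The gene sox9b encodes one of 2 zebrafish counterparts of SOX9, the high mobility group factor of bile duct cells and their precursors. It was at 15.8, 13.5, 10.2 and 24.5 CPM in lf:YAP replicates 1 to 4, and at 7.25, 8.39, 7.32 and 8.24 CPM in WT replicates 1 to 4. All lf:YAP libraries were higher, and WT was tight while lf:YAP replicate 4 stood above the rest. The log2 fold change was 1.05 ± 0.26 (SE; edgeR adjusted p = 0.013), and 0.76 without lf:YAP replicate 4 (edgeR adjusted p = 0.0412). The other counterpart, sox9a, had 1.13 ± 1.2 CPM in lf:YAP and 2.02 ± 1.28 CPM in WT (SD, n = 4 each), too little to be tested.

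The gene hnf1ba encodes a homeodomain factor needed for the formation of liver and pancreas in zebrafish and known in kidney too. It was at 24, 23.4, 28.1 and 35.6 CPM in lf:YAP replicates 1 to 4, and at 31.3, 14.5, 21.1 and 20.9 CPM in WT replicates 1 to 4. WT replicates 2, 3 and 4 lay below all lf:YAP libraries, and WT replicate 1 lay above 3 of them. The log2 fold change of 0.34 ± 0.23 (SE), with a 95% interval from -0.22 to 0.90, did not pass (edgeR adjusted p = 0.314). Its paralog hnf1bb had 0.71 ± 0.24 (SE) and did not pass (edgeR adjusted p = 0.0535). The hnf1bb call was gained without lf:YAP replicate 3 (edgeR adjusted p = 0.0274), without WT replicate 4 (0.0337) and without both (0.0127). It was also gained with all libraries in other settings. These were total counts alone (edgeR adjusted p = 0.0221), the filter of 1 CPM (0.048) and no filter but 1 count in total (0.00481). A kidney source would carry hnf1ba too. The 19 kidney markers took 0.0171% to 0.0232% of the counts in lf:YAP and 0.0208% to 0.0266% in WT. Much of that came from podxl (means of 64.5 CPM in lf:YAP and 93.9 CPM in WT), slc26a2 (84.9 and 135) and cdh17 (26.3 and 19.6). Of the others, slc12a1 was at 0 in both groups, umod at 0 and 0.0686 CPM, and nphs1 at 0.0897 and 0.403 CPM. The share is therefore no measure of kidney RNA, whose part in the hnf1ba level was not tested.

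**Figure D2:**
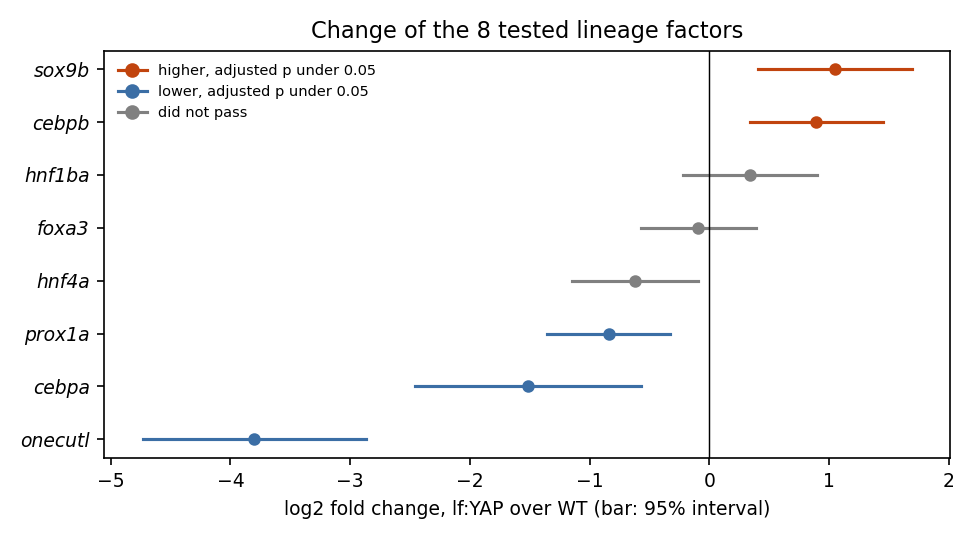
Log2 fold change, lf:YAP over WT, of the 8 tested lineage factors on the x axis, ordered from highest to lowest, with points for the edgeR estimate and bars for its 95% interval. The values run from 1.05 for sox9b to -3.80 for onecutl, and the intervals of hnf1ba and foxa3 include 0.

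In the authors' deposited table, the directions of all 9 genes were those found here, but fewer passed. The table's adjusted p was 0.00178 for onecutl and 0.0364 for cebpa, the 2 genes under 0.05. It was 0.0617 for cebpb, 0.0674 for sox9b, 0.0739 for prox1a and 0.091 for hnf4a in the authors' deposited table. Its log2 fold changes for these 6 genes, -3.70, -1.54, 0.96, 1.03, -0.74 and -0.62 in the same order, differed little from the ones above.

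Ratios between pairs of these genes within a library do not depend on how libraries are scaled, and they kept the groups apart where cebpb and hnf4a alone did not. However, cebpa, sox9b and onecutl kept the groups apart alone, so the ratios that hold them give no separate support. Values are log2 ratios of counts with 0.5 added to each; their absolute size also reflects transcript length, so only differences between libraries are read. For cebpb over cebpa the ratio was 5.25, 4.73, 3.33 and 5.83 in lf:YAP replicates 1 to 4, and 1.41, 2.24, 3.12 and 2.66 in WT replicates 1 to 4. The group means were 4.79 ± 1.07 in lf:YAP and 2.36 ± 0.73 in WT (SD, n = 4 each), and the groups did not overlap, although lf:YAP replicate 3 and WT replicate 3 were near each other.

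For sox9b over hnf4a, a ductal gene against a hepatocyte gene, the ratio was -1.01, -0.97, -2.16 and 0.09 in lf:YAP, and -3.01, -2.47, -2.55 and -2.39 in WT. Here too lf:YAP replicate 3 stood next to the WT range without entering it. For hnf1ba over hnf4a the ratio was -0.41, -0.18, -0.72 and 0.63 in lf:YAP, and -0.93, -1.69, -1.05 and -1.06 in WT, again without overlap. The ratio of onecutl over onecut1 averaged 0.87 ± 1.25 in lf:YAP and 5.15 ± 0.68 in WT (SD, n = 4 each), a mean difference of -4.28. It rests on as few as 2 counts of onecut1 in a library.

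**Figure D3:**
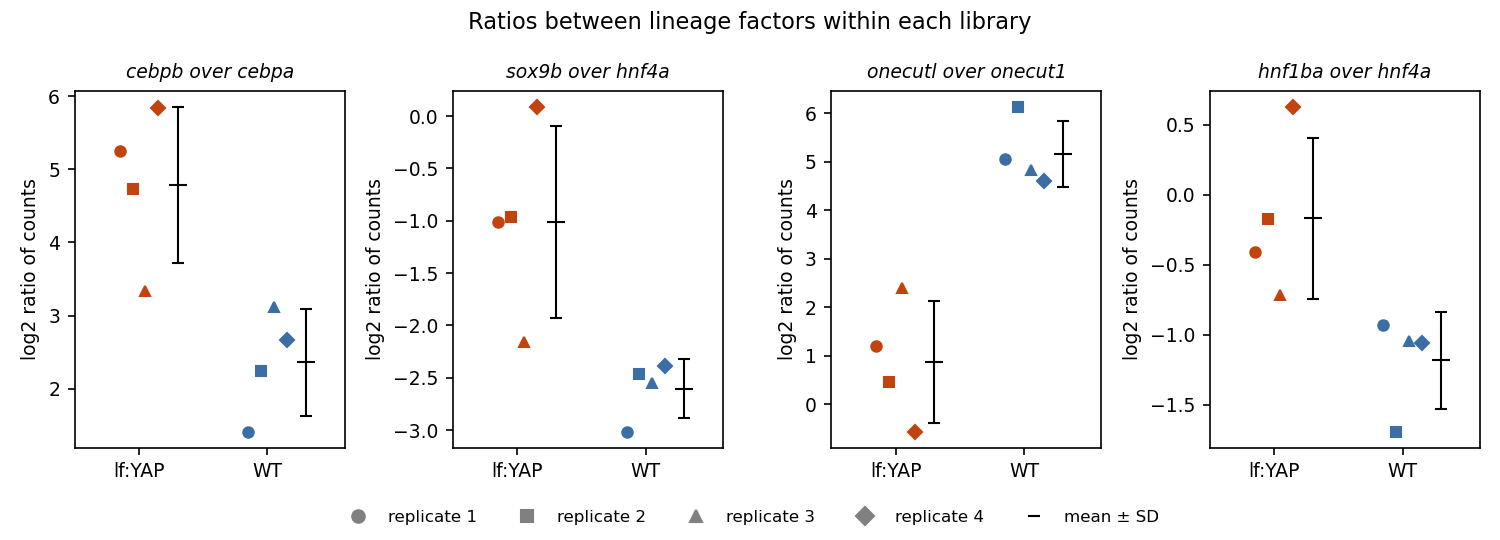
Log2 ratio of counts between pairs of lineage factors in each library (y axis, a separate range per panel), with 4 lf:YAP pools on the left, 4 WT pools on the right, symbols for replicate numbers and bars for the mean ± SD. In each panel the groups do not overlap, and lf:YAP replicate 3 is the lf:YAP library nearest to WT.

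Pools of the same group also differed from each other. Of hnf4a and the 5 factors called changed, 5 of 6 had lf:YAP replicate 3 as the lf:YAP library nearest to the WT mean, prox1a being the exception. That library also held the least yap1 and the most exocrine pancreas RNA. In lf:YAP, the order of the libraries by onecutl and by hnf4a, from high to low, was replicate 3, 1, 2 and 4, which is the order of yap1 from low to high. The other called factors had other orders. From high to low cebpa ran 3, 2, 1 and 4, and from low to high sox9b ran 3, 2, 1 and 4 and cebpb 3, 1, 4 and 2. The prox1a level, lower in lf:YAP than in WT, ran from low to high in the order of yap1, with 48.9 CPM in replicate 3 and 76.6 CPM in replicate 4. Whether any factor followed yap1 was not tested. In WT, replicate 1 was the highest library for 6 of the 9 factors (hnf4a, hnf1ba, cebpa, prox1a, onecut1 and onecutl) and the lowest for cebpb and sox9b; it had the lowest share of exocrine pancreas markers, 0.292%. With lf:YAP replicate 3 and WT replicate 4 both left out, the log2 fold changes were -4.14 for onecutl, -1.89 for cebpa, -0.92 for hnf4a, -0.89 for prox1a, 1.07 for cebpb and 1.22 for sox9b. All 6 then passed (edgeR adjusted p of 0.00366 for hnf4a).

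**Figure D4:**
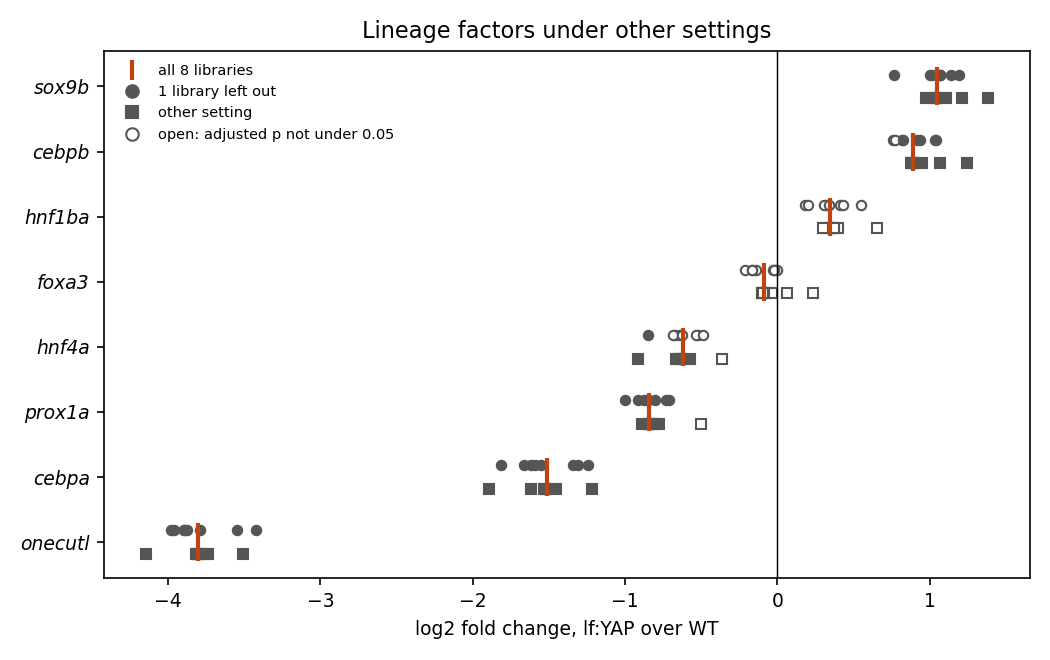
Log2 fold change, lf:YAP over WT, of the 8 tested lineage factors under other settings: red bars give the value with all libraries, circles the fits that leave out 1 library, squares the other settings, and open symbols those with an adjusted p not under 0.05. The sign is the same in all fits for 7 of the 8 genes, foxa3 being the exception.

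The genes whose patterns over the 8 libraries were most like those of the lineage factors were sought among 2949 tested genes whose mean log2 CPM reached 4. Rows with clone or other placeholder names, and further rows of a repeated symbol, were passed over. Likeness was the root mean square difference between log2 profiles centred on their own means. For onecutl the nearest genes were the water and glycerol channel gene aqp10a, at a difference of 0.35, and the pyruvate dehydrogenase kinase gene pdk2b, at 0.40. The pdk2b level was 25.4 ± 9.81 CPM in lf:YAP and 256 ± 72.8 CPM in WT (SD, n = 4 each). For hnf4a they were the complement gene c5 (0.071) and gigyf1a (0.1), for cebpb rbms1a (0.144) and the kinase gene stk26 (0.152), and for prox1a hcfc1b (0.133) and ehd4 (0.142). For foxa3 they were tmem30c (0.088) and the importin gene kpna3 (0.106), and for hnf1ba rin2 (0.177) and tut4 (0.191). The c5 gene, at 328 ± 108 CPM in lf:YAP and 487 ± 40 CPM in WT (SD, n = 4 each), also did not pass (edgeR adjusted p = 0.0785). Like hnf4a it passed without lf:YAP replicate 3 (edgeR adjusted p = 0.00307). As c5 was picked for its likeness to hnf4a in these same libraries, that likeness was set by the choice and gives no separate support.

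Other liver lineage factors also moved in both directions. Of 46 listed, 45 were in the table and 25 were tested. Of these, 4 rose (16%) and 6 fell (24%), against 11.1% and 10.5% of all tested genes. The median log2 fold change of the 25 was 0.125. Beside foxa1 and onecut2, the genes that fell were klf15, a factor of fasting metabolism, the retinoid X receptor gene rxraa, the fatty acid sensor gene pparaa and atf5b. The klf15 level was 148 ± 32.9 CPM in lf:YAP and 301 ± 35.8 CPM in WT (SD, n = 4 each), a log2 change of -1.02 ± 0.19 (SE; edgeR adjusted p = 0.00262). The rxraa level was 20.7 ± 3.77 CPM in lf:YAP and 36.2 ± 4.3 CPM in WT (SD, n = 4 each; edgeR adjusted p = 0.0065), and its call was lost with total counts alone (0.127).

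The genes that rose included klf6a, creb3l3b and gata6. The klf6a gene, whose mammalian counterpart responds to liver injury, was at 139, 206, 58.3 and 112 CPM in lf:YAP replicates 1 to 4, and at 35.1, 54.5, 41.1 and 45.6 CPM in WT replicates 1 to 4. It had a log2 fold change of 1.55 ± 0.32 (SE; edgeR adjusted p = 0.00708). The membrane-bound factor gene creb3l3b rose by 1.15 ± 0.26, and the endoderm factor gene gata6 by 0.52 ± 0.15 (± SE). Single libraries decided 3 of the 10 calls. The gata6 call was lost on leaving out any of 4 libraries, lf:YAP 2, lf:YAP 4, WT 2 and WT 4 (edgeR adjusted p of 0.0505 to 0.0764). The pparaa call did not survive the loss of lf:YAP 2, lf:YAP 4, WT 1, WT 2 or WT 3 (0.0503 to 0.108), nor the atf5b call that of lf:YAP 2, lf:YAP 4, WT 1, WT 2 or WT 4 (0.0717 to 0.141). Other settings removed calls too. DESeq2 dropped gata6 and atf5b (DESeq2 adjusted p of 0.0524 and 0.0617). Both were lost without lf:YAP replicate 3 and WT replicate 4 together (edgeR adjusted p of 0.0571 and 0.0919). The atf5b call was also lost with the 1 CPM filter (edgeR adjusted p = 0.0615). Total counts alone removed pparaa (edgeR adjusted p = 0.118) and atf5b (0.416). With total counts alone 7 rose and 3 fell.

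The hepatoblast factor nr5a2, at 59.7 ± 3.06 CPM in lf:YAP and 58.1 ± 13.2 CPM in WT, and gata4, at 21.4 ± 2.51 and 24 ± 4.38 CPM in the same order (SD, n = 4 each), did not pass. The bile acid receptor gene nr1h4 had 0.70 ± 0.28 on the log2 scale (SE, edgeR adjusted p = 0.093) and passed without WT replicate 1 (0.0114). With all libraries, nr1h4 passed with total counts alone (edgeR adjusted p = 0.0257) and with no filter but 1 count in total (0.0365). Too rare to be tested were hhex, with 3.86 ± 2.05 CPM in lf:YAP and 1.85 ± 1.34 CPM in WT, and her9. The her9 level was 3.11 ± 0.702 and 1.06 ± 0.202 CPM in the same order (SD, n = 4 each).

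**Figure D5:**
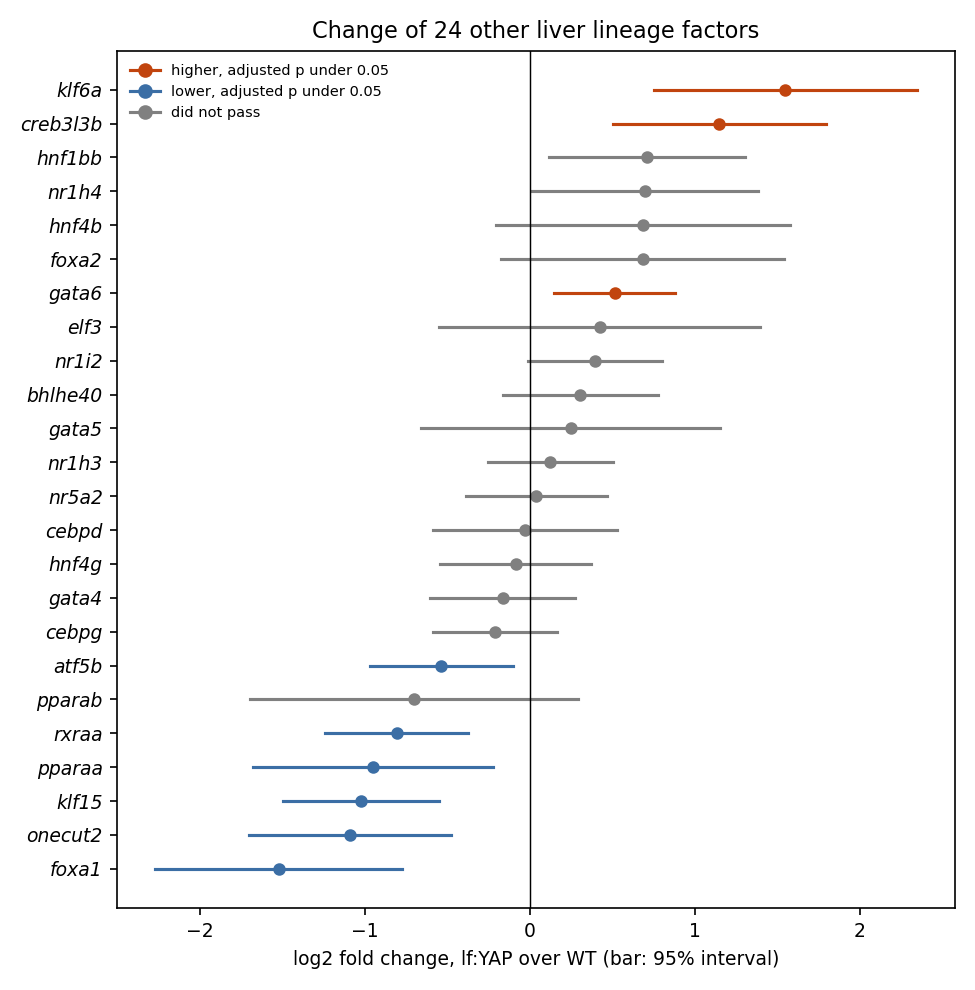
Log2 fold change, lf:YAP over WT, of 24 other tested liver lineage factors on the x axis, ordered from highest to lowest, with points for the edgeR estimate and bars for its 95% interval. The values run from 1.55 for klf6a to -1.52 for foxa1, with 3 genes shown higher, 6 lower and 15 that did not pass.

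Hepatocyte genes known in mammals as targets of HNF4A, HNF1 or C/EBP factors fell more often than they rose. Of 69 listed, 53 were tested, of which 2 rose (3.77%), 12 fell (22.6%) and 39 did not pass, with a median log2 fold change of -0.42. Over all tested genes 11.1% rose and 10.5% fell. This list too was chosen with earlier results of these data known, so its shares are description only. The fibrinogen chain gene fgb was at 498 ± 196 CPM in lf:YAP and 1061 ± 136 CPM in WT (SD, n = 4 each); the log2 fold change was -1.09 ± 0.26 (SE; edgeR adjusted p = 0.0104). The glyoxylate-detoxifying enzyme genes agxtb and agxta fell by 0.93 and 0.72 on the log2 scale, and the protease inhibitor gene serpina1l fell by 0.97. The agxta call was lost with total counts alone (edgeR adjusted p = 0.0573). The genes that rose were f7i, of the coagulation factor VII family, by 1.496 ± 0.199, and the ferroxidase gene cp, by 0.85 ± 0.25 (± SE). The cp call was lost when lf:YAP 1, lf:YAP 4, WT 2, WT 3 or WT 4 was left out (edgeR adjusted p of 0.0533 to 0.0863).

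The number of these genes that fell rested on single libraries. It was 27 without lf:YAP replicate 3, and 6 on leaving out lf:YAP 2, WT 1, WT 2 or WT 3. The number that rose was 5 without lf:YAP replicate 3 and 1 without lf:YAP replicate 1. With total counts alone, 8 rose and 12 fell.

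Markers of bile duct cells and progenitors other than the 9 factors rose more often than they fell. Of 45 listed, 34 were tested, of which 10 rose (29.4%), 3 fell (8.82%) and 21 did not pass, with a median log2 fold change of 0.15. The shares over all tested genes were 11.1% higher and 10.5% lower. As this list was chosen with earlier results of these data known, its shares are description and give no separate support. The keratin gene krt18a.1 was at 1061 ± 247 CPM in lf:YAP and 269 ± 28.1 CPM in WT (SD, n = 4 each), with a log2 difference of 1.98 ± 0.20 (SE; edgeR adjusted p = 5.94e-05). The cadherin gene cdh1 rose by 1.01 ± 0.16, the annexin gene anxa4 by 1.399 ± 0.240, krt8 by 1.062 ± 0.188 and the ezrin gene ezra by 1.104 ± 0.209 (± SE), and these 5 calls held in all alternative fits. Keratins, cdh1 and ezra are also expressed by hepatocytes or other epithelia. The other listed keratin genes, krt4, krt5, krt15, krt18b and krt94, did not pass. Together the markers made up 0.507%, 0.619%, 0.379% and 0.856% of the counts in lf:YAP replicates 1 to 4, and 0.216%, 0.237%, 0.22% and 0.271% in WT replicates 1 to 4. The groups did not overlap (2-sided exact permutation p = 0.0286, adjusted p = 0.157 over 11 marker lists). That p is the smallest that 4 against 4 allows. With TMM factors the sum was 4357 to 6705 CPM in lf:YAP and 2416 to 2827 CPM in WT. Much of it came from krt18a.1, anxa4 and krt8, so the sum largely restates genes named above. The means of anxa4 and krt8 were 1086 and 1579 CPM in lf:YAP, against 412 and 756 CPM in WT.

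The ductal list also held members that fell. They were the polycystin gene pkd1a (-1.25), the fibrocystin-like gene pkhd1l1 (-1.70) and the bicarbonate cotransporter gene slc4a4a (-2.44), named after their values were seen. In lf:YAP, pkhd1l1 was at 2.03 ± 1.52 CPM and slc4a4a at 3.75 ± 3.26 CPM, near or under the filter's level of 3.44 CPM. In WT they were at 6.33 ± 2.5 and 18 ± 13 CPM (SD, n = 4 each), so these 2 genes were tested mainly through their level in WT. The number of ductal markers that fell was 0 without lf:YAP replicate 2, 1 on leaving out lf:YAP 4, WT 3 or WT 4, and 5 without lf:YAP replicate 3. Without lf:YAP replicate 3 and WT replicate 4 together it was 3, but pkd1a and pkhd1l1 no longer passed (edgeR adjusted p of 0.0508 and 0.0971).

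Genes of the acute phase response and of the interleukin-6 pathway, which in mammals induces C/EBP-beta, moved both ways. Of 28 listed, 19 were tested, of which 5 rose (26.3%) and 4 fell (21.1%), against 11.1% and 10.5% of all tested genes. The median log2 fold change was 0.15, and 3 rose on leaving out lf:YAP 4 or WT 2. With total counts alone 8 rose and 4 fell. The pentraxin genes crp3 and crp2 fell by 1.78 and 1.82 on the log2 scale. The AP-1 genes junba and junbb fell by 1.91 and 2.06. The higher genes included nfkb2 (0.90 ± 0.19, SE; edgeR adjusted p = 0.00541) and the feedback inhibitor gene socs3b (0.81 ± 0.18). The signal transducer gene stat3 was at 26 ± 2.37 CPM in lf:YAP and 16.9 ± 4.58 CPM in WT (SD, n = 4 each; edgeR adjusted p = 0.0378). The stat3 call was lost on leaving out any library but lf:YAP 3 and WT 3 (edgeR adjusted p of 0.0671 to 0.116) and with DESeq2 (0.0573).

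RNA of other tissues was detected in both groups. Intestine markers took 0.0541% to 0.103% of the counts in lf:YAP and 0.0531% to 0.187% in WT (2-sided exact permutation p = 0.371), and exocrine pancreas markers differed less (p = 0.971 by the same exact test). Skeletal muscle markers took 0.0352% to 0.135% in lf:YAP and 0.0982% to 0.228% in WT (exact permutation p = 0.0571, adjusted p = 0.157). Endocrine pancreas markers reached at most 0.0041% in any library, erythroid markers 0.00444%, and stellate and mesenchymal markers 0.0204%. Gene by gene, 4 of 14 tested intestine markers, 7 of 27 muscle markers, 3 of 11 stellate and mesenchymal markers and 1 of 5 kidney markers fell in lf:YAP. Those shares were 28.6%, 25.9%, 27.3% and 20% in the same order, against 10.5% of all tested genes. In turn, 2 muscle markers and 1 of 2 endocrine pancreas markers rose, where 11.1% of all tested genes did. The gene desma, which fell, is on the muscle list and on the stellate and mesenchymal list, and is counted in both. The kidney marker that fell, gata3, was at 2.38 ± 0.548 CPM in lf:YAP and 5.73 ± 1.76 CPM in WT (SD, n = 4 each). It was thus tested mainly through its level in WT. The marker counts rested on single libraries. The muscle markers that fell numbered 18 without lf:YAP 3, 1 without lf:YAP 2, 3 without WT 2 and 4 without WT 3. For intestine they numbered 11 without lf:YAP 3, 2 without lf:YAP 2 and 7 without WT 1, and for kidney 3 without lf:YAP 3 and 0 without lf:YAP 4 or WT 4. For stellate and mesenchymal markers they numbered 5 without lf:YAP 3, 1 without lf:YAP 1 or lf:YAP 4, and 0 without lf:YAP 2, WT 2 or WT 4. The endocrine call, the insulin gene ins, was named after its value was seen, and it was lost without lf:YAP 2, WT 1, WT 3 or WT 4 (edgeR adjusted p of 0.05 to 0.0728) and without both libraries rich in pancreas RNA (0.0976). With all libraries, none of 24 exocrine pancreas and 13 endothelial markers passed edgeR's test, 0 of them had an unadjusted p under 0.05, and DESeq2 called 0. Without lf:YAP 3, 1 endothelial marker was called higher. Without both libraries rich in pancreas RNA, 1 exocrine pancreas marker and 1 endothelial marker were called lower. Of 3 erythroid markers edgeR called 0, with 1 at an unadjusted p under 0.05, 1 called by DESeq2 and 2 called higher without WT 4. Of 20 tested hepatocyte markers, 2 rose (10%) and 8 fell (40%), against 11.1% and 10.5% of all tested genes. The number that fell was 5 without WT 3 and 11 without lf:YAP 3. Only 1 rose without lf:YAP 1, lf:YAP 4, WT 2, WT 3 or WT 4. Most of these markers are also on the list of mammalian target genes, so their count is not separate from that result. The part of all these tissues and cells in the levels of the lineage factors was not tested.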

How the data were processed

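Total RNA of 8 liver pools was sequenced. The submitters' processing notes name the build danRer10 and the tools limma 3.40.6, featureCounts 1.6.0, HISAT2 2.1.0 and cutadapt 1.16, in roles not stated. The annotation and the strand setting are not given in the sources used, so reads of overlapping genes and close paralogs cannot be assigned with certainty. The authors deposited raw counts and CPM values for each gene in each library, and a log2 fold change, a log2 mean and p-values for lf:YAP against WT. The counts were analysed, the deposited CPM values and log2 means were not used, and the authors' log2 fold changes and adjusted p-values are quoted as such.

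Of 35117 rows, 6518 had no name (0.657% to 2.55% of counts) and were left out. Tests were run with edgeR 4.0.16 under R 4.3.3 (filterByExpr, TMM, robust quasi-likelihood F-test, group as the only term, Benjamini-Hochberg over 8369 genes). SE is the log2 fold change divided by the square root of F, and 95% intervals used 6 degrees of freedom. Alternatives were DESeq2 1.42.0, limma-voom (limma 3.58.1), other scalings and filters, a replicate block and left-out libraries. Replicate pairs differed by at least 3.52 times the sampling variance, so none was 1 library deposited in duplicate.

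The 9 genes and 14 gene lists were chosen with earlier results of these data known, and symbols were matched by name, with RefSeq synonyms for 4. Of each list, up to 5 called genes with the smallest p were named, and for each factor whose mean log2 CPM reached 4 the 2 nearest genes by pattern; other names were chosen after their values were seen. Promoter motifs and protein identities, planned at the outset, were not analysed here. The values of 1 other lineage factor are not reported here; it is counted among the members of its list.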

Additional observations from a re-analysis of the deposited data

Results flagged for a closer look

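Of 48 sets of 4 libraries, 4 held a library that stood far from the other 3, about 1 in 20 being what chance gives. The share of exocrine pancreas markers was 1.57% in lf:YAP replicate 3, the rest of that group being at 0.435% to 0.515%. The share of intestine markers was 0.103% in the same library, against 0.0541% to 0.0619%. Erythroid markers took 0.00392% of the counts in WT replicate 4, against 0.00108% to 0.00137% in the other WT libraries. The log2 ratio of hnf1ba over hnf4a was -1.69 in WT replicate 2, against -1.06 to -0.93 in the other WT libraries, from 38 counts of hnf1ba and 124 of hnf4a. None of the 9 factors had such a library in its own level.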

How the results depend on the processing

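Of 136 alternative values for the 8 tested factors, 127 kept their direction and their side of the threshold, or had no call under either fit; 6 passed where hnf4a had not, 3 no longer passed (cebpb without lf:YAP replicate 2 or WT replicate 2, prox1a with total counts alone), and no called gene reversed. Scaling by total counts alone moved the median of all genes from 0.01 to 0.31 on the log2 scale and gave 1541 higher and 521 lower genes, against 929 and 875. With no filter but 1 count in total these were 1410 and 1445. Leaving out 1 library gave 705 to 1227 higher and 604 to 1311 lower genes, 1 to 2 factors higher and 3 to 4 lower. Of the other lineage factors, 7 rose and 3 fell with total counts alone and 9 rose with no filter; 3 to 6 rose and 4 to 7 fell without 1 library. Of the hepatocyte genes, 8 rose with total counts alone, 7 with no filter, and 4 rose and 26 fell without both libraries rich in pancreas RNA; without 1 library 1 to 5 rose and 6 to 27 fell. Of the ductal markers 8 to 12 rose and 0 to 5 fell without 1 library, and 13 rose and 3 fell without both libraries rich in pancreas RNA. The cause of these moves was not tested.

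The replicate numbers are shared by both groups, but same-numbered libraries did not deviate together (correlations of -0.051 to 0.039 over 4 pairs, and 1 of 8 libraries nearest to its own number). With the replicate number as a block, 855 genes were higher and 830 lower, with 2 factors higher and 4 lower, hnf4a being the added one (edgeR adjusted p = 0.0469). Under the block the calls of gata6 (edgeR adjusted p = 0.063), atf5b (0.0797), slc4a4a (0.0869), stat3 (0.0608) and ins (0.0502) were lost, and the muscle markers that fell numbered 3 against 7, with 0 against 3 stellate and mesenchymal markers. Depth limits cebpa, with 4 to 12 counts per lf:YAP library, and onecut1, with 2 to 18 per library. A shorter promoter window for motif matches was not run, as no promoter sequence was used here.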
